A study of Mus musculus with 20 samples.

Results

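The 45 genes described here are the working parts of the hypoxia-inducible factor (HIF) pathway and of glycolysis: 3 HIF alpha subunits, 5 oxygen-sensing regulators, 8 HIF targets, 4 glucose and lactate carriers, 17 glycolytic enzymes, 4 PFKFB enzymes and 4 pyruvate dehydrogenase kinases. They were chosen by name for their function, with earlier results of these data known. They were matched by Ensembl identifier to the 78258 rows of the count table. All 45 passed the filter on low counts, which left 28564 genes.

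HIF is a pair of proteins, an oxygen-regulated alpha subunit and a constant partner, ARNT. With oxygen present, prolyl hydroxylases of the EGLN family mark the alpha subunit, VHL recognises the mark, and the subunit is destroyed; without oxygen it accumulates and binds the core letters ACGTG or GCGTG beside genes of glucose uptake, glycolysis and blood vessel growth. The aryl hydrocarbon receptor, AhR, the protein of the gene targeted in the knockout mice, also pairs with ARNT and binds GCGTG. Glycolysis turns glucose into pyruvate, lactate dehydrogenase turns pyruvate into lactate, and pyruvate dehydrogenase kinases hold pyruvate back from the mitochondria; in ganglia, glucose and lactate pass between blood, glia and neurons through the GLUT and MCT carriers.

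RNA came from dorsal root ganglia (DRG, which house the cell bodies of sensory neurons) of lumbar levels 4 to 6, taken from 10 male mice 1 day after transection of the sciatic nerve. The conditional knockout (cKO) mice were Ahr fl/fl with Thy1CRE-ERT2/EYFP, in which the Thy1 promoter drives a Cre recombinase that tamoxifen activates and a yellow fluorescent marker, and the control mice were Ahr f/f or f/+, with no Cre in their label. Mice of both genotypes received tamoxifen at 100 mg/kg once a day on 5 days from 17 weeks of age, and surgery followed 4 weeks after tamoxifen. Each mouse gave 1 library from contralateral ganglia, which are from the uninjured side of an injured animal, and 1 library from ipsilateral ganglia, which made 4 groups of 5 libraries. The Thy1 promoter is used to direct Cre to neurons, while whole ganglia also hold glia, fibroblasts, vessels and immune cells. In such bulk RNA, fewer cells of a type and less RNA per cell cannot be told apart.

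Values per library are normalised read counts (CPM, counts relative to the library total after TMM scaling), listed for control mice in the order H62, H63, H65, H96 and H97 and for cKO mice in the order H61, H64, H95, H99 and H100, and means are given ± SD with n = 5. Libraries held 76.2 to 118.5 M counts (M, mega). Ahr, the targeted gene, was at 21.3, 24.6, 23.8, 27.2 and 24.4 CPM in control contralateral and 20.4, 21.0, 20.5, 20.4 and 19.5 CPM in cKO contralateral libraries. Every cKO value was below every control value, but the difference of -0.25 (log2, SE 0.0661) was not called (edgeR adjusted p 0.103). On the ipsilateral side the control libraries had 34.4 ± 2.86 CPM of Ahr and the cKO libraries 31.9 ± 2.94 CPM. These ranges overlapped, and the difference of -0.11 (SE 0.0655, edgeR adjusted p 1) was not called. The labelled tissue was checked against its markers: all 19 sensory neuron markers and all 8 satellite glia markers were detected in every library, and the neuron markers summed to 13370 to 15470 CPM. Libraries differed in muscle RNA: cKO contralateral H100 held 2268 CPM of 10 skeletal muscle markers. Control ipsilateral H65 held 930.7 CPM and control contralateral H62 held 561.8 CPM of them, and the rest held 62.7 to 426.3 CPM.

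Nerve transection was compared first, as ipsilateral against contralateral ganglia within each genotype. In control mice 14 of the 45 genes were called at an adjusted p under 0.05 (edgeR quasi-likelihood test, Benjamini-Hochberg adjustment over all genes tested), 8 higher and 6 lower, which is 31.1% of them, beside 29.9% of all genes tested (13.8% higher and 16% lower). In cKO mice 19 were called, 11 higher and 8 lower, or 42.2%, beside 31.3% of all genes (16.2% higher and 15.1% lower). How these shares stand to the background depends on the setting. In control mice they were 40% beside 30% with mouse as a replicate block and 40% beside 30.4% with DESeq2. In cKO mice they were 42.2% beside 31.6% and 42.2% beside 32.3% in the same order. At a mean CPM of at least 1, 17 of these genes were called in control and 19 in cKO mice. Of all genes, 40.5% and 42.8% were called there. Car9, below 1 CPM in every library, did not pass that filter, so no share of the 45 is given for it. Nothing is read from these shares. The median log2 fold change of the 45 genes, 0.01 in control and -0.02 in cKO mice, stood beside -0.0047 and -0.03 for all genes. Of the 45 genes, 12 were called with the same direction in both genotypes: Hif1a, Slc2a1, Slc2a3, Slc16a1, Pgk1, Pfkfb3 and Pfkfb4 rose, and Bnip3, Car9, Pfkm, Pdk1 and Pdk2 fell. The share of all genes called in the same direction in both genotypes was not counted, so nothing is read from this number.

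**Figure D1:**
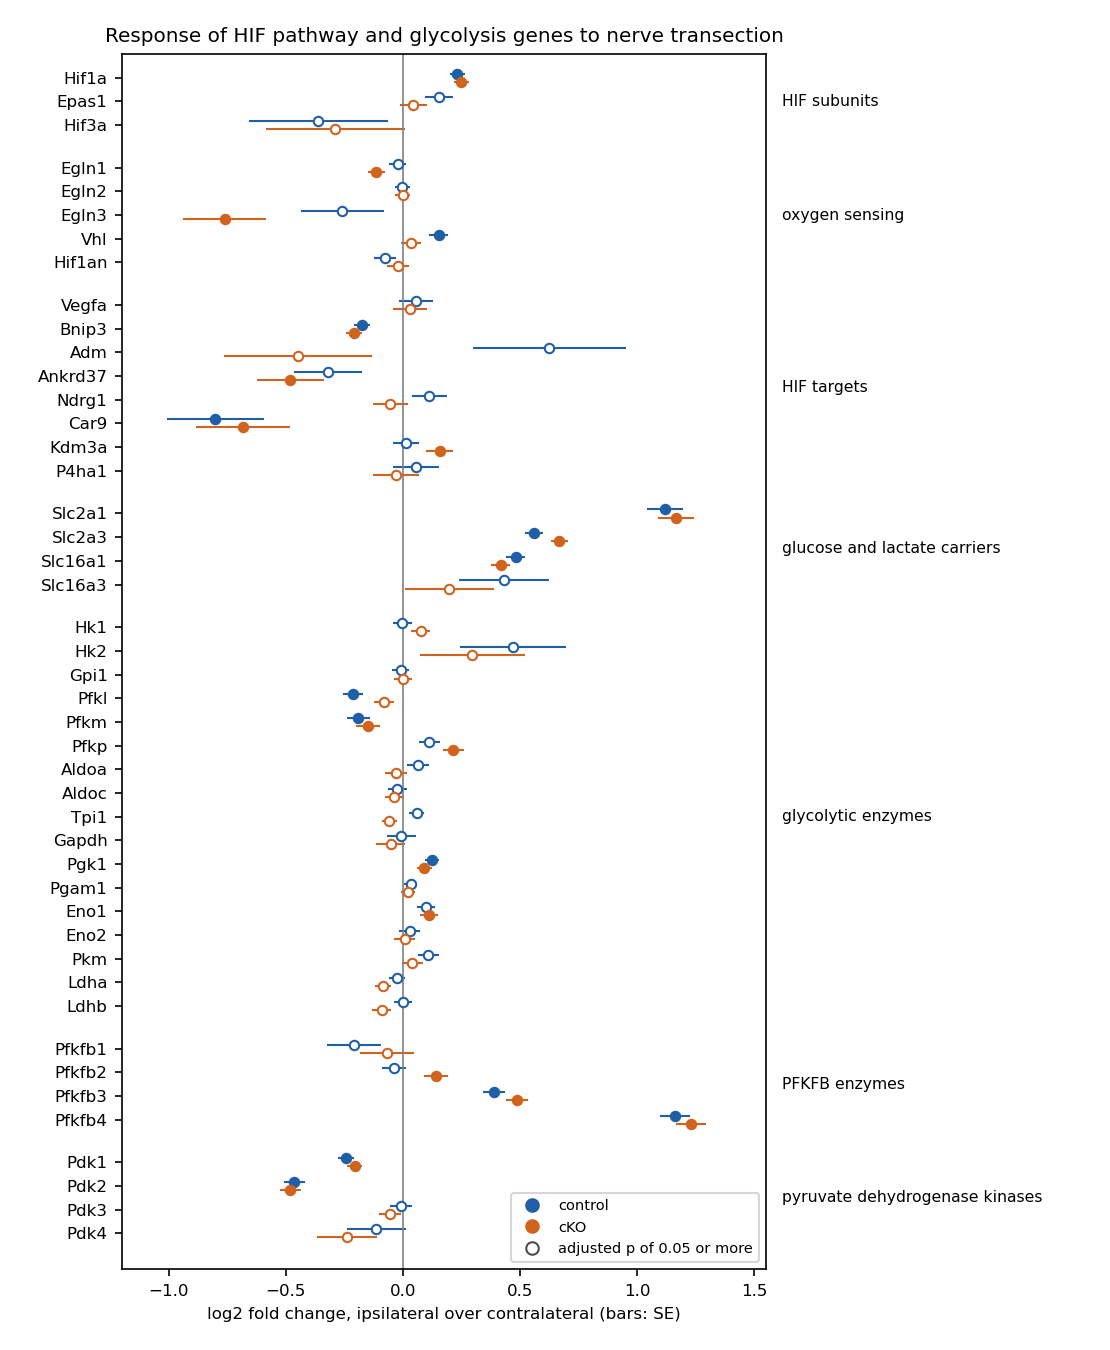
Log2 fold change of ipsilateral over contralateral ganglia (horizontal axis, with SE bars) for each of the 45 genes, grouped by role, in control (blue) and cKO (orange) mice; filled points have an adjusted p under 0.05. Slc2a1 and Pfkfb4 lie above 1 in both genotypes, most of the 17 glycolytic enzymes lie close to 0, and Car9 and Pdk2 lie below 0 in both.

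The rises were led by Slc2a1, which encodes GLUT1, the glucose carrier of endothelium and glia, and Pfkfb4, which encodes an enzyme that sets the level of fructose 2,6-bisphosphate, the activator of phosphofructokinase. The falls were led by Car9, a carbonic anhydrase of the cell surface and a much-used reporter of HIF activity, and Pdk2, a widely expressed pyruvate dehydrogenase kinase. Their promoters are shown because these 4 genes moved furthest in the 2 directions among the 12 and because HIF and AhR both bind letters of this kind. Each line holds the 250 bases before the gene start (RefSeq, GRCm38.p6), 5′ to 3′ on the strand of the gene. Capitals mark ACGTG or GCGTG on either strand, where CACGT and CACGC are these letters read on the other strand. The positions are chr4:119108495-119108744 (plus strand) for Slc2a1, chr9:108991652-108991901 (plus strand) for Pfkfb4, chr4:43506776-43507025 (plus strand) for Car9 and chr11:95041372-95041621 (minus strand) for Pdk2, for which the start lying farthest upstream is shown. The other Pdk2 promoter, chr11:95040876-95041125, holds neither ACGTG nor GCGTG.
Slc2a1: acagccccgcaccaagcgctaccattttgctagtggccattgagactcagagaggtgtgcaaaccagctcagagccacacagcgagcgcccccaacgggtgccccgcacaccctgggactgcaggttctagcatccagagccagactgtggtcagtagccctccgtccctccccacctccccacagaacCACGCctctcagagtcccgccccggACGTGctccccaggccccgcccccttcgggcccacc
Pfkfb4: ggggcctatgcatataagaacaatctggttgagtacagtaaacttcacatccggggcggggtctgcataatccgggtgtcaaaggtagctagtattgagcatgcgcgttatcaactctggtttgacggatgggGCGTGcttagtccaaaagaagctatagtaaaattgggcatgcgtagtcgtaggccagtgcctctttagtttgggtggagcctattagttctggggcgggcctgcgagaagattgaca
Car9: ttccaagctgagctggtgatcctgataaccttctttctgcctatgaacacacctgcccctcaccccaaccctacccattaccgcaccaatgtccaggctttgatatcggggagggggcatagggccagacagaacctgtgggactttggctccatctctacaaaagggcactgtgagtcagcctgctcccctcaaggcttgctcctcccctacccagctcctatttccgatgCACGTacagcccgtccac
Pdk2: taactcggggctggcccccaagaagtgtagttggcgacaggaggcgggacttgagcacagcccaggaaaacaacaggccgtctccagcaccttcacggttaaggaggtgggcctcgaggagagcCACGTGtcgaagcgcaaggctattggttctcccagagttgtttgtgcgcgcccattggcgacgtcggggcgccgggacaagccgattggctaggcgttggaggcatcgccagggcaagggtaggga

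Slc2a1 was at 62.98, 65.3, 54.7, 58.0 and 60.9 CPM in control contralateral and 131.9, 137.9, 122.2, 140.3 and 123.8 CPM in control ipsilateral libraries. In cKO mice it was at 54.6, 62.4, 64.2, 58.5 and 52.5 CPM contralateral and 120.7, 161, 131.1, 118.3 and 124.9 CPM ipsilateral. The lowest ipsilateral library stood well above the highest contralateral library in both genotypes, and H64 was the highest of the cKO ipsilateral libraries. The log2 fold change was 1.12 (SE 0.0773, edgeR adjusted p 1.02e-09) in control and 1.17 (SE 0.0774, adjusted p 4.54e-10) in cKO mice. Markers of endothelium, a cell type rich in GLUT1, were examined beside it: in control mice 7 of 7 had a positive fold change and 3 were called, with sums of 96.02 to 137 CPM contralateral and 113 to 166 CPM ipsilateral, while in cKO mice 4 of 7 were positive and 0 were called, with sums of 112 to 165 and 127 to 150.4 CPM. Of the 8 satellite glia markers, 2 were called higher and 1 lower in control mice, with sums of 1647 to 1805 CPM contralateral and 1819 to 2068 CPM ipsilateral, which did not overlap; in cKO mice 3 were called higher and 1 lower, with sums of 1623 to 1961 and 1757 to 1958 CPM. Flt1, 1 of the 7 endothelium markers, also stands in the list of other HIF targets described below. It was called in control mice (0.35) and not in cKO mice (-0.007). No marker of endothelium or satellite glia was at 0 in any library, and their part in the Slc2a1 result was not tested.

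Slc2a3, which encodes GLUT3, the high-affinity glucose carrier of neurons, and Slc16a1, which encodes the lactate carrier MCT1, rose as well. Both were chosen after their values were seen. Slc2a3 was at 107, 107, 113, 116 and 117 CPM in control contralateral and 171, 165, 161, 169 and 157 CPM in control ipsilateral libraries. In cKO mice Slc2a3 was at 109, 95.3, 107, 107 and 105 CPM contralateral and 164, 175, 165, 162 and 165 CPM ipsilateral. The sides did not overlap in either genotype, and H64 had the lowest contralateral and the highest ipsilateral value of the cKO mice. The log2 fold change of Slc2a3 was 0.56 (SE 0.0369, edgeR adjusted p 2.39e-10) in control and 0.67 (SE 0.037, adjusted p 1.21e-11) in cKO mice. Slc16a1 went from 76.2 ± 3.29 to 106 ± 5.45 CPM in control mice (log2 fold change 0.48, SE 0.041, edgeR adjusted p 1.25e-08) and from 80.7 ± 3.04 to 108 ± 5.41 CPM in cKO mice (0.42, SE 0.0409, adjusted p 8.64e-08), again without overlap. The remaining carrier, Slc16a3 (MCT4, the lactate exporter of strongly glycolytic cells), was at 3.60 ± 0.853 and 4.87 ± 0.531 CPM in control and 4.76 ± 1.65 and 5.46 ± 0.996 CPM in cKO ganglia and was not called (edgeR adjusted p 0.102 and 0.479); with mouse as a replicate block it was called in control mice (0.46, SE 0.123, edgeR adjusted p 0.013).

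**Figure D2:**
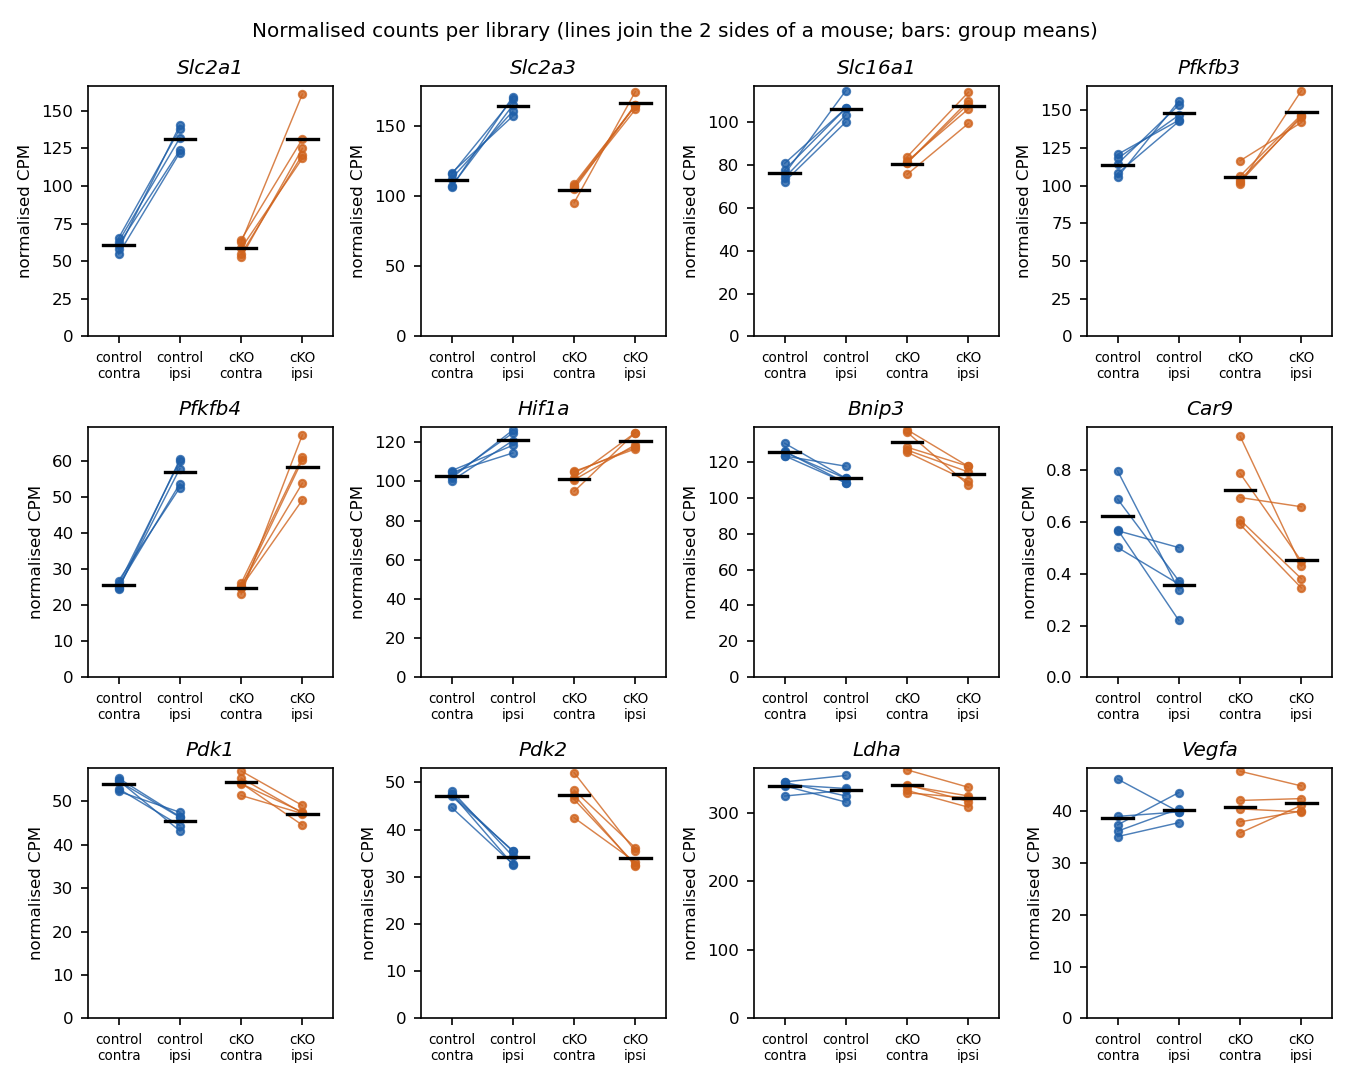
Normalised CPM (vertical axes, starting at 0) of 12 genes in each of the 20 libraries, in control (blue) and cKO (orange) mice; lines join the contralateral and ipsilateral library of a mouse and black bars are group means. The ipsilateral libraries lie above all contralateral libraries of their genotype for Slc2a1, Slc2a3, Slc16a1, Pfkfb3, Pfkfb4 and Hif1a, whereas Ldha and Vegfa overlap.

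The PFKFB enzymes both make and break down fructose 2,6-bisphosphate and so set the pace of glycolysis at phosphofructokinase. Pfkfb4 was at 24.6, 24.7, 25.8, 26.8 and 25.4 CPM in control contralateral and 60.5, 58.0, 60.1, 52.7 and 53.7 CPM in control ipsilateral libraries. In cKO mice Pfkfb4 was at 26.1, 23.1, 24.9, 25.0 and 25.5 CPM contralateral and 61.1, 67.3, 60.3, 49.2 and 53.9 CPM ipsilateral. The sides were far apart in both genotypes and the contralateral libraries were close to one another. The log2 fold change of Pfkfb4 was 1.16 (SE 0.064, edgeR adjusted p 1.32e-11) in control and 1.23 (SE 0.0641, adjusted p 4.61e-12) in cKO mice.

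Pfkfb3, the isoform with the strongest kinase activity, was at 106, 114, 121, 108 and 118 CPM in control contralateral and 156, 154, 143, 143 and 147 CPM in control ipsilateral libraries. In cKO mice Pfkfb3 was at 106, 101, 104, 116 and 102 CPM contralateral and 147, 163, 145, 142 and 146 CPM ipsilateral. Its sides did not overlap either, and the log2 fold change was 0.39 (SE 0.046, edgeR adjusted p 1.27e-06) in control and 0.49 (SE 0.046, adjusted p 4.77e-08) in cKO mice. Pfkfb2, the isoform best known from heart, was called in cKO mice only (0.14, edgeR adjusted p 0.045), a call that 7 of 17 alternative settings lost, among them the replicate block (adjusted p 0.0822) and leaving out mouse H61, H62, H64, H95 or H100; it was at -0.04 in control mice, and the difference between the genotypes was not called (0.18, adjusted p 0.496). Pfkfb1, the liver and muscle isoform, was low at 1.44 to 1.66 CPM in the 4 group means and not called. Pfkfb2 shares exon bases with Gm29427 on the same strand and Pfkfb1 with Apex2 on the opposite strand, so their counts could be split.

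Among the HIF subunits, Hif1a, the alpha subunit found in most cells, was at 103, 102, 105, 100.3 and 106 CPM in control contralateral and 125, 126, 114, 121 and 118 CPM in control ipsilateral libraries. In cKO mice Hif1a was at 101, 94.9, 105, 105 and 102 CPM contralateral and 118.7, 125, 117, 118 and 125 CPM ipsilateral. All ipsilateral libraries were above all contralateral ones, by a small step: the log2 fold change was 0.23 (SE 0.0325, edgeR adjusted p 1.11e-05) in control and 0.25 (SE 0.0325, adjusted p 4.47e-06) in cKO mice. Gm15283, on the opposite strand, overlaps 5.6% of the exon bases of Hif1a and had 10.8% of its counts; whether counting used strand is not given.

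Epas1 (HIF-2 alpha, the subunit of endothelium and specialised cells) was at 134, 152, 144, 132 and 152 CPM in control contralateral and 153, 163, 148, 160.5 and 169.5 CPM in control ipsilateral libraries. In cKO mice Epas1 was at 136, 154, 169, 153 and 129.7 CPM contralateral and 156, 155, 156, 145 and 153 CPM ipsilateral. The ranges overlapped in both genotypes and the fold changes of 0.15 (SE 0.0589, edgeR adjusted p 0.0531) in control and 0.04 (SE 0.0589, adjusted p 0.627) in cKO mice were not called, although 8 of 17 alternative settings called the former, among them the replicate block (edgeR adjusted p 0.0329). The endothelium markers, Flt1 included, had a median of 0.40 in control (7 of 7 positive) and 0.07 in cKO mice (4 of 7 positive). Their part in the values of Epas1 was not tested. Hif3a, a subunit whose short forms inhibit HIF, was at 2.09, 1.90, 1.81, 1.29 and 3.35 CPM in control contralateral and 1.98, 1.08, 1.52, 1.18 and 2.31 CPM in control ipsilateral libraries. In cKO mice Hif3a was at 1.42, 2.00, 3.06, 1.52 and 1.38 CPM contralateral and 1.53, 1.47, 2.46, 1.12 and 1.09 CPM ipsilateral. Hif3a was lower ipsilaterally in 5 of 5 control and 4 of 5 cKO mice. It was not called without pairing (-0.36, SE 0.296, and -0.29, SE 0.296; edgeR adjusted p 0.409 and 0.509), whereas with mouse as a replicate block it was called in control mice (-0.36, SE 0.115, edgeR adjusted p 0.03) and not in cKO mice (adjusted p 0.0753). Arnt, the shared partner of HIF and AhR, rose from 19.4 ± 0.484 to 23.1 ± 0.973 CPM in control mice (0.25, SE 0.0479, edgeR adjusted p 0.00043) and from 20.4 ± 1.12 to 23.2 ± 1.68 CPM in cKO mice (0.18, SE 0.0478, adjusted p 0.00549); its sides did not overlap in control mice and did overlap in cKO mice.

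Of the oxygen sensors, Egln1 (PHD2, the main HIF hydroxylase) was called lower in cKO mice (-0.11, edgeR adjusted p 0.0191), a call lost without H95 or H100 and in 2 other settings, and was at -0.02 in control mice. Vhl, the recognition part of the ubiquitin ligase, was called higher in control mice (0.15, edgeR adjusted p 0.00752) and was at 0.03 in cKO mice. Egln2 and Hif1an (FIH, which hydroxylates HIF at an asparagine) lay within 0.08 of 0 and were not called. Egln3 (PHD3), a hydroxylase that is itself a HIF target, was at 11.9, 8.41, 8.59, 8.09 and 8.70 CPM in control contralateral and 7.25, 7.203, 7.32, 7.84 and 8.52 CPM in control ipsilateral libraries. In cKO mice Egln3 was at 9.46, 12.0, 16.2, 9.998 and 20.2 CPM contralateral and 7.07, 7.58, 6.87, 8.18 and 10.3 CPM ipsilateral. The cKO contralateral libraries were spread widely, with H95 and H100 the highest, while the ipsilateral libraries of the genotypes overlapped. Egln3 fell in cKO mice (-0.76, SE 0.178, edgeR adjusted p 0.00274), also without H100 or any other mouse. It was not called in control mice (-0.26, SE 0.178, edgeR adjusted p 0.313), where the alternative settings gave -0.31 to -0.13 and none called it. The interaction of genotype and injury was -0.50 (SE 0.251, edgeR adjusted p 0.521) and was not called. In the same comparison of cKO mice, 6 of 7 fibroblast markers had a negative fold change (median -0.64, 1 called lower), with sums of 937 to 2245 CPM contralateral and 850.1 to 1560 CPM ipsilateral. All 10 skeletal muscle markers were negative too (median -3.06, 1 called lower), with sums of 86.9 to 2268 and 62.7 to 229 CPM. Of 5 erythroid markers 0 were positive (median -0.41), with sums of 272 to 833 and 252 to 616 CPM. Of 7 neutrophil markers 1 was positive (median -0.12), with sums of 24.7 to 209 and 62.25 to 179 CPM. Of 13 macrophage markers 7 were positive (median 0.09). None of these last 3 types had a called marker. No marker of these types was at 0 in any library, and their part in the fall of Egln3 was not tested.

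Of the 8 HIF targets, 0 were called higher and 2 lower in control mice (25%, beside 29.9% of all genes), and 1 was called higher and 3 lower in cKO mice (50%, beside 31.3%); no test of this difference was made. Vegfa, which encodes the growth factor of blood vessels, was at 35.1, 36.2, 37.4, 46.2 and 39.0 CPM in control contralateral and 37.8, 40.5, 43.6, 39.9 and 39.9 CPM in control ipsilateral libraries. In cKO mice Vegfa was at 42.1, 35.8, 40.5, 38.0 and 47.7 CPM contralateral and 42.4, 41.1, 39.9, 40.0 and 44.9 CPM ipsilateral. The sides overlapped fully, and the fold changes of 0.06 (SE 0.0725) and 0.03 (SE 0.0724) were not called (edgeR adjusted p 0.626 and 0.805). Ndrg1, a stress-responsive gene of myelinating glia, and P4ha1, a collagen prolyl hydroxylase, were not called in either genotype and lay between -0.05 and 0.11.

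Car9 was low in all libraries, with 18 to 83 counts each. It was at 0.571, 0.502, 0.567, 0.689 and 0.798 CPM in control contralateral and 0.22, 0.36, 0.501, 0.373 and 0.337 CPM in control ipsilateral libraries. In cKO mice Car9 was at 0.932, 0.609, 0.788, 0.591 and 0.695 CPM contralateral and 0.43, 0.381, 0.449, 0.345 and 0.659 CPM ipsilateral. The sides did not overlap in control mice; in cKO mice the ipsilateral library of H100 lay among the contralateral ones. Car9 fell by 0.80 (SE 0.208, edgeR adjusted p 0.00525) in control and by 0.68 (SE 0.201, adjusted p 0.0126) in cKO mice on the log2 scale, and the second call was lost without H61 or H95 (largest adjusted p 0.0755). Gm12454, on the opposite strand, overlaps 9.29% of the exon bases of Car9 and had 163% of its counts, so without a stated strand setting reads of these genes cannot be told apart.

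Bnip3, a mitophagy receptor of the outer mitochondrial membrane, fell from 126 ± 2.88 to 111 ± 3.81 CPM in control mice (-0.18, SE 0.0342, edgeR adjusted p 0.000405) and from 131 ± 5.84 to 113 ± 4.79 CPM in cKO mice (-0.21, SE 0.0342, adjusted p 6.35e-05), without overlap of the sides in either genotype. Gm45507, on the opposite strand, overlaps 22.3% of its exon bases and had 31.6% of its counts. Ankrd37, a small ankyrin repeat gene induced by HIF, was at 1.52 ± 0.254 and 1.22 ± 0.274 CPM in control mice (-0.32, edgeR adjusted p 0.105) and fell from 1.94 ± 0.249 to 1.39 ± 0.167 CPM in cKO mice (-0.48, SE 0.142, adjusted p 0.0127). Ankrd37 overlaps Ufsp2 and Lrp2bp on the opposite strand, and Ufsp2 had far more counts. Kdm3a, a histone demethylase, was called higher in cKO mice (0.16, edgeR adjusted p 0.0404), a call lost on leaving out any 1 of 7 mice (H61, H63, H64, H95, H97, H99 or H100), and was at 0.01 in control mice.

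The 17 enzymes from hexokinase to lactate dehydrogenase had 3 calls in control mice (1 higher, 2 lower; 17.6%, beside 29.9% of all genes) and 4 in cKO mice (3 higher, 1 lower; 23.5%, beside 31.3%), and the largest called change was 0.21 in either direction. The difference from all genes was not tested, and in control mice Pfkp, Eno1 and Pkm were called higher as well with DESeq2, in a fit of the control libraries alone, among genes with a mean CPM of at least 1, and on leaving out H95, H97 or H99 (without H97 Pfkm was lost). Pgk1 (phosphoglycerate kinase) was called higher in both genotypes, from 306 ± 5.92 to 334 ± 10.1 CPM in control (0.12, edgeR adjusted p 0.00344) and from 311 ± 13.2 to 331 ± 8.76 CPM in cKO mice (0.09, adjusted p 0.0269, lost without H61). Ldha, the lactate-forming dehydrogenase and a textbook HIF target, was at 341, 344, 345, 324 and 339 CPM in control contralateral and 336, 325, 354, 333 and 316 CPM in control ipsilateral libraries. In cKO mice Ldha was at 329, 333, 341, 339.7 and 363 CPM contralateral and 322, 308, 316, 325 and 337 CPM ipsilateral. The sides overlapped in both genotypes, and the fold changes of -0.03 (SE 0.0339) and -0.08 (SE 0.0339) were not called (edgeR adjusted p 0.618 and 0.064); the latter was called with mouse as a replicate block (edgeR adjusted p 0.0474). Its partner Ldhb was at 0.00 and -0.09 and was not called either.

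Hk2, the inducible hexokinase, varied widely between mice. It was at 8.61, 6.92, 4.58, 5.204 and 5.35 CPM in control contralateral and 9.90, 7.77, 8.42, 9.71 and 6.62 CPM in control ipsilateral libraries. In cKO mice Hk2 was at 6.53, 4.31, 6.96, 4.49 and 11.0 CPM contralateral and 6.87, 10.2, 7.76, 7.90 and 8.22 CPM ipsilateral. The highest cKO contralateral value was that of H100, the library with the most muscle marker RNA, and the ranges overlapped in both genotypes. Within mice, Hk2 was higher ipsilaterally in 5 of 5 control and 4 of 5 cKO mice, but no alternative setting, the replicate block included, called it. The fold changes of Hk2 were 0.47 (SE 0.226, edgeR adjusted p 0.135) and 0.30 (SE 0.225, adjusted p 0.352). The latter was 0.55 without H100 (SE 0.205, edgeR adjusted p 0.057) and 0.08 without H64 (SE 0.232, adjusted p 0.85), and neither was called. Hk1, the constant hexokinase of neurons, lay within 0.08 of 0 and was not called, although its response in cKO mice was called without H99 (edgeR adjusted p 0.0212).

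The phosphofructokinase subunits moved apart. Pfkm, the muscle-type subunit, fell from 296 ± 3.53 to 259 ± 10.2 CPM in control mice (-0.19, SE 0.05, edgeR adjusted p 0.00587, lost without H97) and from 283 ± 27.4 to 255 ± 12.7 CPM in cKO mice (-0.15, adjusted p 0.0267, lost without H61 or H99 and in 2 other settings). Pfkl, the liver-type subunit, was called lower in control mice (-0.21, edgeR adjusted p 0.000573) and was at -0.08 in cKO mice (adjusted p 0.159). Pfkp, the platelet-type subunit that is common in brain, was called higher in cKO mice (0.21, edgeR adjusted p 0.000852) and was at 0.11 in control mice (adjusted p 0.0636, called in 10 of 17 alternative settings). Within a library the log2 ratio of Pfkp to Pfkm, which does not depend on scaling, was higher on the ipsilateral side in 5 of 5 control mice (by 0.304 ± 0.0387) and in 5 of 5 cKO mice (by 0.362 ± 0.109).

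The other pairs of isoforms were described in the same way, with no test. The log2 ratio of Slc2a3 to Slc2a1 was lower ipsilaterally in all 5 mice of each genotype, by -0.56 ± 0.138 in control and -0.493 ± 0.0824 in cKO mice, so Slc2a1 RNA gained on Slc2a3 RNA even as both rose. Eno2 to Eno1, the neuronal against the general enolase, was also lower in 5 of 5 mice of each genotype, by smaller steps of -0.0684 ± 0.0274 and -0.103 ± 0.0266. Eno1 itself was called higher in cKO mice (0.11, edgeR adjusted p 0.0277, lost without H61, H64 or H100) and was at 0.10 in control mice (adjusted p 0.0566, called in 9 of 17 alternative settings). Egln3 to Egln1 was lower in all 10 mice, with a mean change of -0.223 ± 0.263 in control and -0.602 ± 0.331 in cKO mice. The log2 ratio of Ldha to Ldhb changed by -0.0288 ± 0.06 in control and 0.0071 ± 0.0752 in cKO mice, with mice on both sides of 0. Hk2 to Hk1 changed by 0.493 ± 0.358 and 0.295 ± 0.659 (higher in 5 and 4 of 5 mice). For Aldoc to Aldoa the changes were -0.09 ± 0.0835 and -0.00698 ± 0.124 (higher in 1 of 5 mice each). Slc16a3 to Slc16a1 changed by -0.0233 ± 0.269 and -0.178 ± 0.307 (higher in 3 and 2 of 5). Epas1 to Hif1a changed by -0.0758 ± 0.091 and -0.199 ± 0.146 (higher in 1 and 0 of 5).

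**Figure D3:**
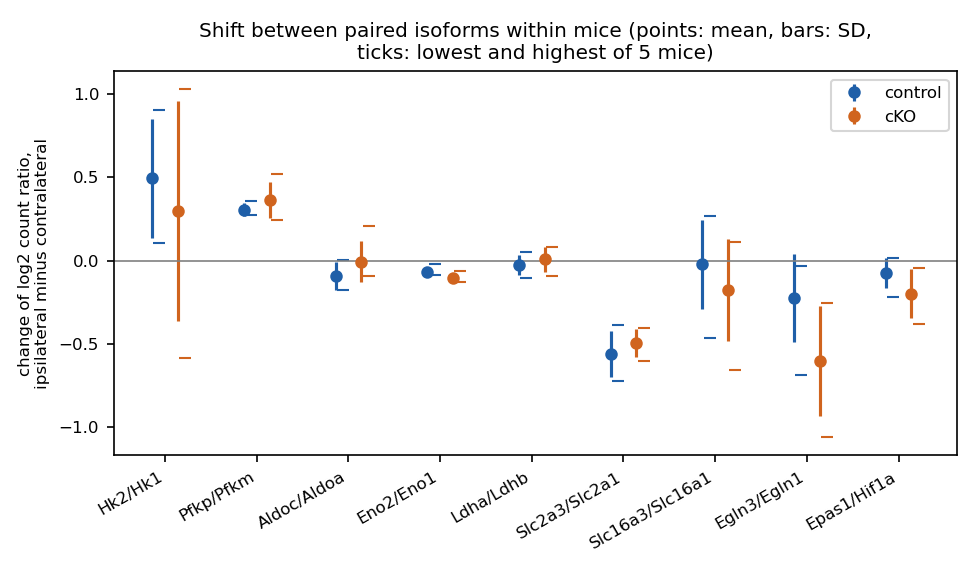
Change of the log2 ratio of 2 isoforms from the contralateral to the ipsilateral library of a mouse (vertical axis), for 9 pairs in control (blue) and cKO (orange) mice; points are means, bars are SD and ticks are the lowest and highest of 5 mice. Pfkp/Pfkm lies above 0 in every mouse, and Eno2/Eno1, Slc2a3/Slc2a1 and Egln3/Egln1 lie below 0 in every mouse.

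The enzymes Gpi1, Aldoa, Aldoc, Tpi1, Gapdh, Pgam1, Eno2 and Pkm were not called in either genotype, with fold changes from -0.06 to 0.11. Pkm (pyruvate kinase) came nearest in control mice, at 0.11 (edgeR adjusted p 0.0738), and 6 of 17 alternative settings called it. Some of these counts are shared with near-identical copies: a second identifier with the symbol Aldoa had 97.1% to 97.6% of the counts of Aldoa in a library, and Pgam1-ps2 had 12.7% to 16.3% of those of Pgam1. Gapdh has many processed pseudogenes; of these, Gapdh-ps15 had 0.535% to 2.17% and Gapdh-ps14 0.063% to 0.406% of its counts. Iffo1, on the opposite strand, overlaps 1.65% of the exon bases of Gapdh and had 84.4% of its counts. The level of Gapdh is therefore uncertain.

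The pyruvate dehydrogenase kinases fell where they changed. Pdk1, a HIF target in many cells, was at 54.8, 52.9, 52.3, 54.6 and 55.3 CPM in control contralateral and 43.2, 44.4, 47.5, 46.3 and 46.5 CPM in control ipsilateral libraries. In cKO mice Pdk1 was at 54.2, 54.0, 51.4, 55.4 and 57.0 CPM contralateral and 44.5, 47.5, 47.2, 47.3 and 49.0 CPM ipsilateral. No ipsilateral library reached the lowest contralateral one, and the log2 fold change was -0.24 (SE 0.0334, edgeR adjusted p 8.11e-06) in control and -0.21 (SE 0.0333, adjusted p 5.63e-05) in cKO mice.

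Pdk2 was at 44.7, 47.6, 47.6, 47.1 and 48.2 CPM in control contralateral and 32.7, 32.6, 35.4, 35.5 and 34.3 CPM in control ipsilateral libraries. In cKO mice Pdk2 was at 42.5, 46.4, 47.3, 48.3 and 52.0 CPM contralateral and 33.1, 32.6, 32.3, 36.1 and 35.4 CPM ipsilateral. The sides were well apart, with a log2 fold change of -0.46 (SE 0.046, edgeR adjusted p 1.16e-07) in control and -0.48 (SE 0.046, adjusted p 5.65e-08) in cKO mice; its values are given because of their size. Pdk3 and Pdk4, the latter induced by fasting in muscle, were at -0.01 and -0.11 in control and -0.06 and -0.24 in cKO mice and were not called.

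The ranges of the 2 sides did not overlap for 14 of the 45 genes in control mice, the same 14 that were called, with 8 higher and 6 lower, beside 11.3% of all genes tested higher and 12.3% lower. In cKO mice the ranges were apart for 10 of the genes: Hif1a, Slc2a1, Slc2a3, Slc16a1, Pfkfb3 and Pfkfb4 higher, and Bnip3, Ankrd37, Pdk1 and Pdk2 lower, beside 11.9% and 8.32% of all genes.

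Levels can be compared between genes only per length. In control contralateral ganglia, CPM per kilobase of merged exons (GENCODE M21) was 196 ± 11.2 for Aldoa, 175 ± 8.31 for Ldhb, 149.7 ± 8.85 for Pkm, 148 ± 4.29 for Pgam1, 141 ± 6.79 for Eno2 and 102 ± 2.53 for Ldha. The order of these enzymes depends on the length used: per kilobase of the longest transcript Aldoa was at 368, Pkm at 308, Eno2 at 237, Ldhb at 210.2, Ldha at 187 and Pgam1 at 166 CPM, so no rank among them below Aldoa is given. Slc2a1 went from 17.2 ± 1.18 to 37.4 ± 2.32 CPM per kilobase in control mice and Slc2a3 from 15.4 ± 0.641 to 22.7 ± 0.802, and with the longest transcript they were also closer to each other contralaterally (18.5 and 17.9) than ipsilaterally (40.2 and 26.3). Pfkfb4 went from 5.23 ± 0.183 to 11.7 ± 0.741 CPM per kilobase and stayed below Pfkfb3, which was at 19.6 ± 0.8 ipsilaterally. Car9 and Hif3a were the lowest, at 0.271 ± 0.0511 and 0.311 ± 0.114 CPM per kilobase.

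Promoters of 42 of the 45 genes were matched in RefSeq. ACGTG or GCGTG was found on either strand in at least 1 promoter of 37 of the 42 genes (88.1%), beside 41.5% of 27025 genes. ACGTG was found in 23 (54.8%, beside 18.5%) and GCGTG in 28 (66.7%, beside 30.9%). Genes that hold both are in both of these counts. CACGTG holds ACGTG on both strands and counts under it. All 6 matched genes that rose in both genotypes and all 5 that fell in both held the letters, as did 26 of the 31 others, so the presence of either did not separate the directions. ACGTG, with or without GCGTG, was found in 5 of the 6 genes that rose, 4 of the 5 that fell and 14 of the 31 others. CACGTG was found in 3, 3 and 2 of them, beside 6.02% of all promoters taken singly. The promoters of these genes were richer in G and C, with a median of 59.6% over 65 promoters beside 52.4% over 32851, and this share was not taken into account.

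The rest of the pathway was described with a list of 107 further genes, of which 105 were tested. In control mice 43 were called (41%), 30 higher and 13 lower, and in cKO mice 40 (38.1%), 26 higher and 14 lower, beside 29.9% of all genes in control mice (13.8% higher and 16% lower) and 31.3% in cKO mice (16.2% higher and 15.1% lower). Among genes with a mean CPM of at least 1 the shares of all genes were 40.5% and 42.8%. The list was not recounted among those, and nothing is read from its shares. In the same direction in both genotypes, 28 were called, 21 higher and 7 lower. This count has no share of all genes beside it either, and nothing is read from it. The 40 other HIF targets had 19 higher and 2 lower calls in control (52.5% called) and 14 higher and 3 lower calls in cKO mice (42.5% called). Their difference from all genes was not tested. Of 8 pentose phosphate genes, 4 were higher and 1 lower in each genotype, among them Taldo1 (transaldolase, 0.38 and 0.37, edgeR adjusted p 1.06e-09 and 1.45e-09), named because of its values. The 11 other sugar and lactate carriers had 0 higher and 3 lower calls in control mice and 1 higher and 3 lower calls in cKO mice (27.3% and 36.4% called, beside 29.9% and 31.3% of all genes). The 11 genes of pyruvate entry into mitochondria had 1 lower call in control and 3 lower calls in cKO mice.

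Igfbp3, which encodes a binding protein of insulin-like growth factors, went from 14.3 ± 2.31 to 105 ± 7.03 CPM in control mice (2.87, SE 0.133, edgeR adjusted p 1.04e-11) and from 16.1 ± 3.15 to 102 ± 14.5 CPM in cKO mice (2.67, SE 0.132, adjusted p 2.23e-11). Car12, a carbonic anhydrase of the cell surface like Car9, was at 0.909, 0.563, 0.716, 0.888 and 0.823 CPM in control contralateral and 2.03, 1.97, 1.36, 1.47 and 2.02 CPM in control ipsilateral libraries. In cKO mice Car12 was at 0.659, 0.647, 0.733, 0.422 and 0.645 CPM contralateral and 1.77, 1.77, 1.87, 1.61 and 1.98 CPM ipsilateral. Car12 rose in both genotypes (1.18, SE 0.149, edgeR adjusted p 3.2e-06, and 1.53, SE 0.153, adjusted p 1.06e-07) while Car9 fell in both.

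The comparison of genotypes asked whether these genes differed between cKO and control mice on either side. Ahr itself was not called between genotypes on either side, so its loss was not shown in these whole ganglia. Only the cKO mice have Cre in their label, so Ahr deletion and the presence of Cre cannot be told apart. On the contralateral side 0 of the 45 genes were called by edgeR, beside 0.0735% of all genes (0.0245% higher and 0.049% lower), and 10 had an unadjusted p under 0.05 (22.2%, beside 17.5% of all genes): Egln3, Vhl, Adm, Ankrd37, Kdm3a, Slc2a3, Hk1, Pfkp, Pfkfb2 and Pfkfb3. DESeq2 called 2 of the 45, Egln3 and Adm, beside 3.64% of all genes. Without mouse H99 edgeR called 7 (Egln3, Vhl and Adm higher, Hk1, Pfkl, Pfkp and Pfkfb2 lower), but then 11.5% of all genes were called. On the ipsilateral side 0 of the 45 genes were called by edgeR and by DESeq2, beside 0.007% of all genes with edgeR (0.0035% higher and 0.0035% lower), and 0 had an unadjusted p under 0.05, beside 2.36% of all genes. For the interaction of genotype and injury 0 were called by either tool, beside 0% of all genes with edgeR, and 4 had an unadjusted p under 0.05 (8.89%, beside 9.8% of all genes): Adm, Pfkl, Tpi1 and Pfkfb2. The ranges of the genotypes overlapped for all 45 genes on both sides, where 0.448% of all genes were apart and higher and 1.07% apart and lower contralaterally, and 0.364% and 0.235% ipsilaterally. None of the 105 further genes tested was called between genotypes by edgeR on either side.

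Adm, which encodes the vasodilator peptide adrenomedullin, had the largest difference between genotypes and is given for that reason. It was at 1.501, 1.77, 0.945, 1.10 and 0.985 CPM in control contralateral and 1.52, 2.26, 4.45, 1.54 and 4.98 CPM in cKO contralateral libraries. Ipsilaterally Adm was at 2.21, 1.98, 1.70, 1.64 and 2.18 CPM in control mice and 1.96, 1.48, 1.88, 1.97 and 3.56 CPM in cKO mice. The contralateral ranges overlapped, since H61 and H99 lay among the controls while H95 and H100 lay far above them. The contralateral difference was 1.23 (SE 0.325, edgeR adjusted p 0.106). The response to injury was 0.62 (SE 0.326, edgeR adjusted p 0.17) in control and -0.45 (SE 0.316, edgeR adjusted p 0.312) in cKO mice. The interaction was -1.07 (SE 0.454, edgeR adjusted p 0.498), and none of these was called. Over the alternative settings the response in cKO mice ranged from -0.58 to -0.20, and none called it. With mouse as a replicate block the response of Adm in control mice was called (0.65, SE 0.22, edgeR adjusted p 0.0447). It was also called in a fit of the control libraries alone (0.64, edgeR, SE 0.173, adjusted p 0.0125). In that comparison all 13 macrophage markers (median 0.39, 1 called), 7 neutrophil markers (median 0.59, 0 called), 7 fibroblast markers (median 0.34, 0 called) and 7 endothelium markers (median 0.40, 3 called) had a positive fold change. Their sums in contralateral and ipsilateral control libraries were 145 to 282 and 166 to 321 CPM for macrophages and 40.7 to 144 and 39.7 to 196 CPM for neutrophils. They were 803 to 1359 and 927 to 1520 CPM for fibroblasts, and 96.02 to 137 and 113 to 166 CPM for endothelium, Flt1 included. In cKO mice the medians were 0.09, -0.12, -0.64 and 0.07 in the same order. No marker of these types was at 0 in any library. Their part in the response of Adm was not tested. The contralateral difference of Egln3 was 0.57 (SE 0.177, edgeR adjusted p 0.13). These comparisons use the same cKO contralateral libraries, so a high value there enters the genotype difference and the injury response alike.

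Markers of other cell types were set beside the values of Egln3 and Adm. The fibroblast markers summed to 1010, 2245, 1985, 937 and 1689 CPM in the cKO contralateral libraries. In the control contralateral ones they summed to 803 to 1359 CPM. H64, H95 and H100 were the highest cKO contralateral libraries for the fibroblast sum, for Adm and for Egln3, in differing order. The fibroblast sum was highest in H64, whereas Adm and Egln3 were highest in H100. All 7 fibroblast, 13 macrophage, 7 neutrophil, 7 endothelium and 5 erythroid markers had a positive contralateral genotype difference. Of these 0 were called, and no marker was at 0 in any library. Among the other lists, 9 of 10 skeletal muscle and 5 of 7 pericyte and smooth muscle markers were positive. So were 5 of 10 Schwann cell, 5 of 19 sensory neuron and 4 of 8 satellite glia markers, and none of these was called. The contralateral sums were 145 to 282 CPM in control and 142 to 399 CPM in cKO libraries for macrophages, 40.7 to 144 and 24.7 to 209 CPM for neutrophils, and 311 to 711 and 272 to 833 CPM for erythroid cells. Their part in the values of Egln3 and Adm was not tested. Leaving out H100, the library with the most muscle RNA, gave a contralateral difference of 0.38 for Egln3 (SE 0.135, edgeR adjusted p 0.288) and 0.96 for Adm (SE 0.272, adjusted p 0.267).

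**Figure D4:**
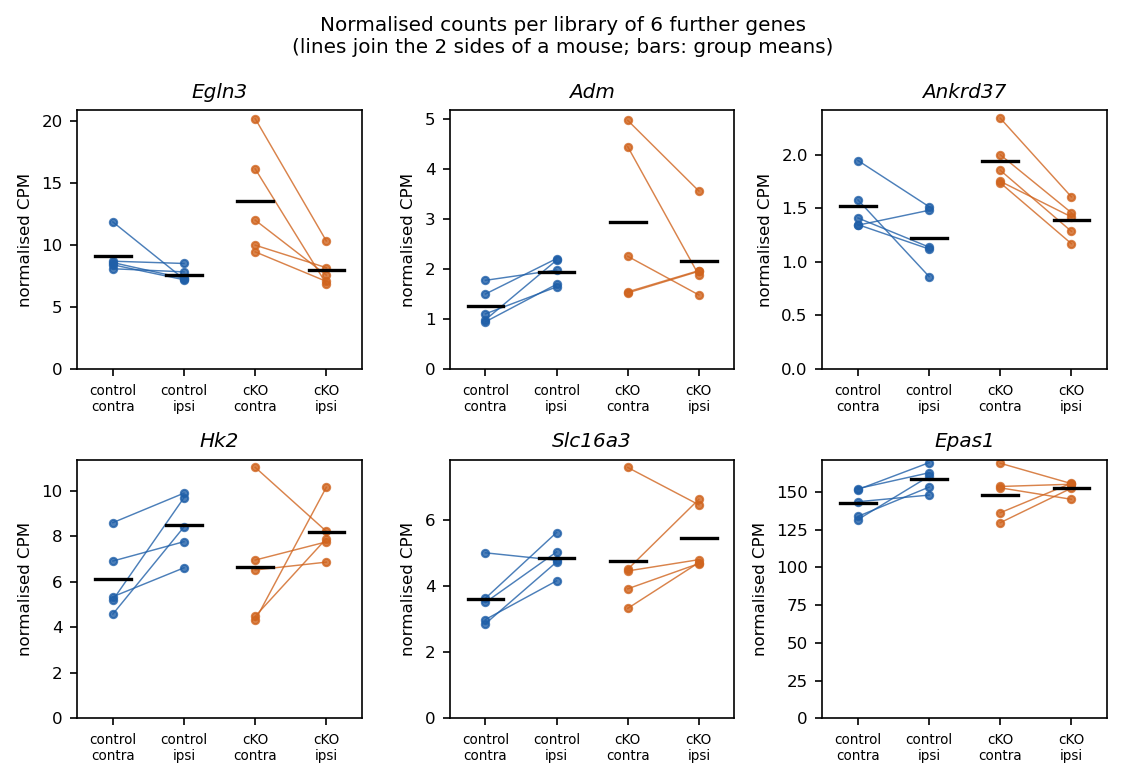
Normalised CPM (vertical axes, starting at 0) of Egln3, Adm, Ankrd37, Hk2, Slc16a3 and Epas1 in each of the 20 libraries, in control (blue) and cKO (orange) mice; lines join the 2 sides of a mouse and black bars are group means. The cKO contralateral libraries of Egln3 reach from 9.46 to 20.2 CPM and those of Adm from 1.52 to 4.98 CPM, while the ipsilateral libraries of the genotypes overlap.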

How the data were processed

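Libraries of mRNA (Illumina Stranded mRNA kit, paired 150 bp reads, per the labels' protocols) were made from both sides of 10 mice. The authors deposited whole-number exonic counts per gene without normalization; their deposited FPKM table was not used here. The submitters' processing notes name HISAT2, Picard and the builds mm10 and mm39; the counting program, annotation release and strand setting are not given in the sources used here. One label field speaks of spinal cord injury, but the protocol describes nerve transection and was followed. The titles call the control samples wildtype, while their library names read ff. In addition, 1 mouse number that is cut short in its title was read from the library name.

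The counts were tested in edgeR 4.0.16 (R 4.3.3): filterByExpr (minimum count 10, minimum total 15), TMM scaling, and quasi-likelihood F-tests with the robust option, from a single model of 20 libraries with a mean per group and 5 contrasts. P-values were adjusted by Benjamini-Hochberg over the 28564 genes of a contrast and called under 0.05. Replicates differed beyond counting error (chi-square per degree of freedom from 4.97 to 52.7 in 40 pairs), and the precision is that of the mice, not of depth. The highest values, 48.2 to 52.7, were those of cKO contralateral H99 against H64, H95 and H100.

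The sides of a mouse are paired through the animal, per the labels; their deviations from the group means correlated with a median of 0.186 over mice (-0.0546 to 0.361). Alternatives were the replicate block (mouse as a block, with limma 3.58.1 voom between genotypes), DESeq2 1.42.0, no filter, RLE size factors, a filter at a mean CPM of 1, the range of mouse numbers, only the libraries compared, and leaving out each mouse. Symbols came from GENCODE M21 and promoters from RefSeq (GRCm38.p6). Of the 78258 rows of the count table, 51487 were matched to a symbol. The exon lengths and overlaps are therefore those of M21, which may differ from the annotation used for counting.

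The genes, lists and rules were chosen with earlier results of these data known. Values per library were given for genes called in both injury comparisons with an absolute log2 fold change of at least 0.58, and for Hif1a, Epas1, Hif3a, Vegfa, Egln3, Slc2a1, Hk2, Pfkfb3, Ldha and Pdk1; of the further pathway genes, those at 1 or more in both, and Arnt, were named with their values, not always per library. One further gene that met this rule is not reported here. Others named with values were chosen after their values were seen. Besides the marker lists in the text, Schwann cell and pericyte lists were checked.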

Additional observations from a re-analysis of the deposited data

Results flagged for a closer look

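In each group of 5 libraries the gap of the highest or lowest library to its neighbour, as a share of the group's range, was compared with the Dixon limit of 0.71. It was exceeded in 18 of 180 groups of these 45 genes, where chance gives about 9 if groups are independent and values normal. The groups share the same 20 libraries and are not independent, so nothing is read from this difference.

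Mouse H64 stood apart in 5 ipsilateral or contralateral cKO groups: Slc2a3 contralateral was low (0.723), and on the ipsilateral side Slc2a3 (0.736) and Pfkfb3 (0.751) were high while Pfkfb1 was low (0.842) and Ndrg1 high (0.718). Mouse H100 was high for Slc16a3 (0.723) and Pfkfb1 (0.739) contralaterally, where its muscle marker sum was 2268 CPM, and for Adm ipsilaterally (0.766). In control mouse H62, Egln3 (0.839) and P4ha1 (0.721) were high contralaterally, and P4ha1 (0.766) and Kdm3a (0.723) were high ipsilaterally. P4ha1 was also high in cKO contralateral H95 (0.869), at 58.3 CPM against 46.3 to 47.8 CPM in the other 4 libraries.

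The remaining single libraries were Bnip3 in control ipsilateral H65 (0.722, high), Pfkm (0.743) and Ldha (0.722) in control contralateral H96 (both low), Pkm in control ipsilateral H97 (0.786, low) and Pdk3 in cKO ipsilateral H99 (0.737, high).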

How the results depend on the processing

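No fold change of the 45 genes that was called reversed in any alternative. Over the alternatives the number of genes called was 14 to 20 for injury in control mice (14 with edgeR as reported) and 13 to 19 in cKO mice (19 as reported; 13 without H61). With the replicate block, which pairs the sides of a mouse, 18 genes were called for injury in control and 19 in cKO mice, and 0 between genotypes on either side and for the interaction; Epas1, Hif3a, Adm and Slc16a3 in control mice and Ldha in cKO mice were gained, and Pfkfb2 in cKO mice was lost. A term for the range of mouse numbers gave 14 and 19. Between genotypes contralaterally 2 genes were called with DESeq2, and 0 to 7 when each mouse was left out, with 7 only without H99; the cause was not tested. Of the values of single genes, 3694 kept their side of the threshold, 52 passed it and 29 no longer did; some uncalled values near 0 changed sign. The interaction was not fitted on only the libraries compared, since it uses all of them. P-values rest on 5 mice a group; low genes have wide errors, such as Adm with an SE of 0.316 to 0.326 for injury, and limits from counts cover counting error only, since reads had no molecular identifiers.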
